A study of Saccharomyces cerevisiae with 47 samples.

Results

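Aminoacyl-tRNA synthetases attach each amino acid to its matching tRNA and so supply the charged tRNAs that the ribosome reads. Budding yeast keeps separate nuclear genes for most of its cytosolic and mitochondrial synthetases, and a few genes encode both forms of an enzyme. Reb1 and Abf1 are general regulatory factors, proteins that bind defined DNA motifs in many yeast promoters and are known for keeping nucleosomes away from them. The genes described here were 31 named synthetase genes of 6002 protein-coding genes, 18 for cytosolic and 13 for mitochondrial enzymes. The 18 cytosolic genes covered 17 amino acids and did not include the cytosolic arginyl, cysteinyl and prolyl enzymes. The prolyl gene, YHR020W, is counted below among other genes. The 31 genes were chosen by name. A gene had a site when the centre of a listed Reb1 or Abf1 site lay within 500 bp upstream of its start codon. All 31 names matched the R64 gene table, and the genes lay on 12 chromosomes.

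The study assembled plasmid-borne *Saccharomyces cerevisiae* DNA into chromatin with recombinant yeast histones. No cells were present, and no other nuclear proteins than the factor and remodeler added to a reaction. It comprised 47 samples, of which 24 were Strep-Tactin pulldowns and 23 were their inputs, and a group had up to 2 replicates. A reaction held no factor and no remodeler, or Strep-tagged Reb1 or Abf1 at 50 nM. A factor acted alone or beside 1 ATP-dependent remodeler, an enzyme that moves or evicts nucleosomes: RSC at 12 nM, or Chd1, ISW2 or INO80 at 24 nM. The values used here were 2 lists of sites, 1 per factor, in which 942 distinct Reb1 sites and 1365 distinct Abf1 sites carried a position, a strand and a score. The lists named no sample, so they hold no depth, no spread between replicates and no remodeler effect. Every interval below covers counting error over genes alone. The series text speaks of DNA from chromosomes V to IX, and the lists cover all nuclear chromosomes.

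Cytosolic synthetase genes often had an Abf1 site upstream, and mitochondrial synthetase genes had no upstream site of either factor. An Abf1 site lay upstream of 10 of the 18 cytosolic genes (55.6%, exact 95% interval 30.8 to 78.5), against 13.5% of all protein-coding genes. These were the genes for the alanyl (ALA1), asparaginyl (DED81), aspartyl (DPS1), glutaminyl (GLN4), histidyl (HTS1), methionyl (MES1), threonyl (THS1) and tyrosyl (TYS1) enzymes and for both subunits of the phenylalanyl enzyme (FRS1 and FRS2). A Reb1 site lay upstream of 3 of 18, the genes for the isoleucyl (ILS1) and valyl (VAS1) enzymes and FRS2 (16.7%, 3.58 to 41.4), against 12.5% of all protein-coding genes. The Reb1 share was thus close to the background and the Abf1 share above it.

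Counting either factor, 12 of 18 cytosolic genes had a site (66.7%, exact 95% interval 41.0 to 86.7), against 24.7% of all protein-coding genes. FRS2 was the single member with both, and 1.35% of all protein-coding genes had both. The remaining 6 cytosolic genes, with no site in the window, were those for the leucyl (CDC60), glycyl (GRS1), glutamyl (GUS1), lysyl (KRS1), seryl (SES1) and tryptophanyl (WRS1) enzymes. Over all 31 members the counts were 10 for Abf1 (32.3%), 3 for Reb1 (9.68%) and 12 for either factor (38.7%).

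**Figure D1:**
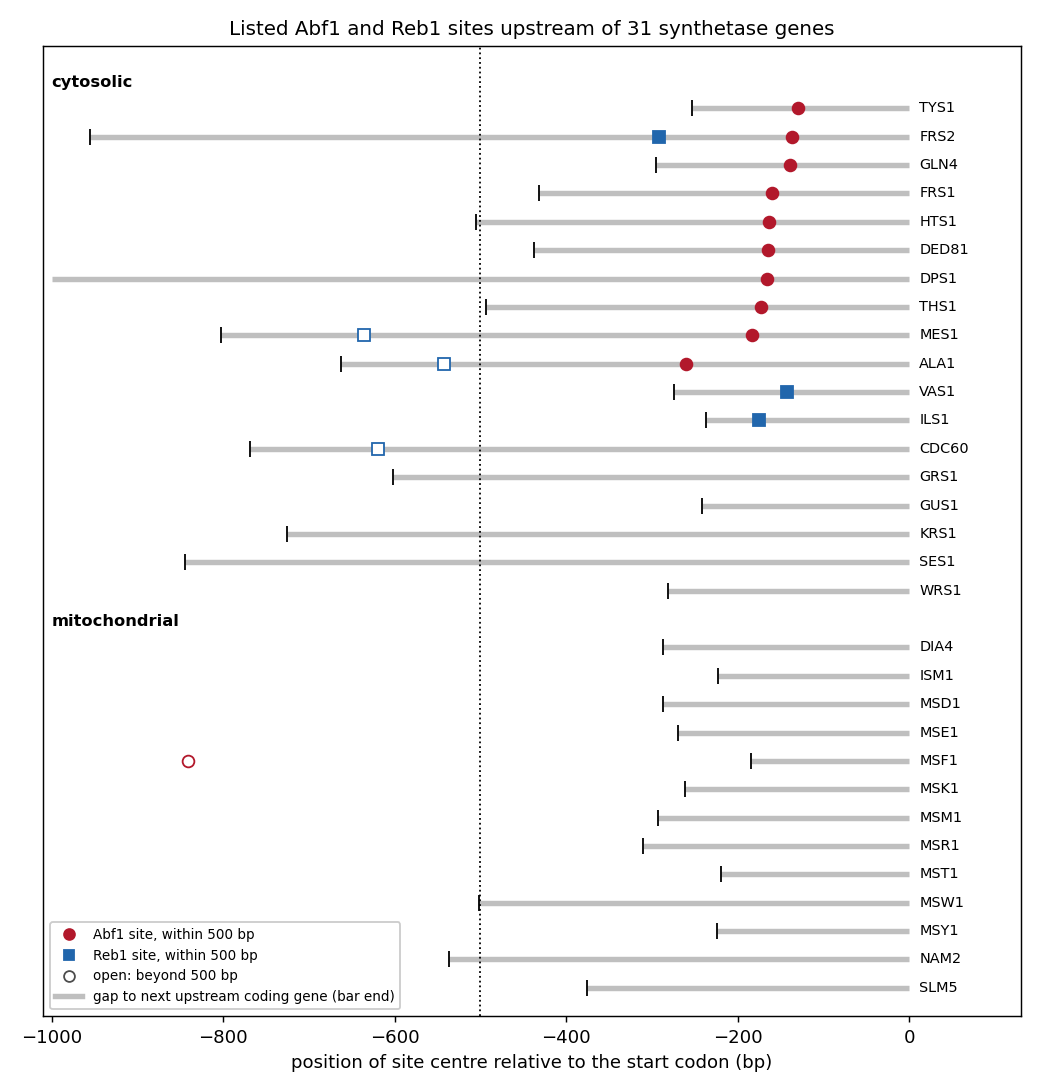
Each row is 1 of the 31 synthetase genes and the horizontal axis is the position of a site's centre relative to the start codon in bp, with filled red circles for Abf1 and filled blue squares for Reb1 within 500 bp (dotted line), open symbols beyond it, and a grey bar for the gap to the next protein-coding gene upstream. The gap of DPS1 runs off the plot. The filled circles of 9 cytosolic genes stand in a narrow column from 130 to 183 bp, and no filled symbol stands in a mitochondrial row.

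The mitochondrial genes were MSE1, MSM1, MSW1, MSY1, MSD1, MSF1, MSK1, MSR1, MST1, DIA4, ISM1, NAM2 and SLM5. They encode the mitochondrial enzymes for glutamate, methionine, tryptophan, tyrosine, aspartate, phenylalanine, lysine, arginine, threonine, serine, isoleucine, leucine and asparagine, in that order. With 0 of 13 for each factor, the exact interval reached 24.7%, a range that includes the shares of all protein-coding genes for Abf1 and for Reb1. A share of mitochondrial genes below the background could therefore not be told from the background with 13 genes.

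The difference between the classes was 55.6 percentage points for Abf1 (95% interval 24.0 to 75.4, Newcombe) and 66.7 points for either factor (34.3 to 83.7), intervals that do not include 0. For Reb1 the difference was 16.7 points with an interval from -8.58 to 39.2, which includes 0. This call depended on the window. With 1000 bp upstream, Reb1 sites lay at 6 of 18 cytosolic and 0 of 13 mitochondrial genes, against 16.3% of all protein-coding genes. That difference was 33.3 points (4.85 to 56.3). The sites added, at ALA1, CDC60 and MES1, lay nearer to the divergent partner's start codon. The same class counts and difference were obtained with any site in the upstream intergenic gap, a setting added after the data were seen and with no share of all genes counted. Mitochondrial gaps reached at most 536 bp and cytosolic gaps 4856 bp, so these settings did not give the classes equal intergenic space. The members were chosen with earlier results of these data known, and neighbouring genes can share a site, so these intervals describe the listed genes and no p-value is given.

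**Figure D2:**
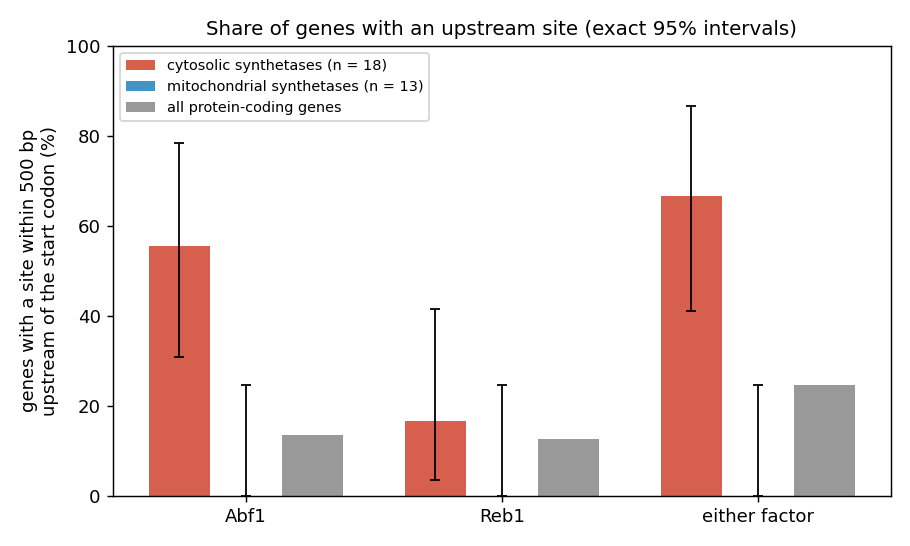
Bars give the percentage of genes with a site within 500 bp upstream for Abf1, Reb1 and either factor, for 18 cytosolic synthetase genes, 13 mitochondrial synthetase genes (bars at 0) and all protein-coding genes, with exact 95% binomial intervals as error lines on the synthetase bars. The cytosolic Abf1 bar stands at 55.6% with its interval above the 13.5% bar, and the cytosolic Reb1 interval spans the 12.5% bar.

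Set side by side by amino acid, 12 amino acids had a cytosolic and a mitochondrial enzyme among the members. For 7 of the 12 the cytosolic gene had a site and the mitochondrial gene had none: asparagine, aspartate, isoleucine, methionine, phenylalanine, threonine and tyrosine. Of these, 6 had an Abf1 site and 2 had a Reb1 site, phenylalanine being counted under each. For the other 5 (glutamate, leucine, lysine, serine and tryptophan) neither gene had a site. With a site at 0 of 13 mitochondrial genes, no amino acid could have one at its mitochondrial gene alone. The pairs therefore only show which cytosolic genes had a site.

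ALA1, GRS1, HTS1 and VAS1 each encode the cytosolic and the mitochondrial form of their enzyme from 1 gene. ALA1 and HTS1 had an Abf1 site, VAS1 had a Reb1 site and GRS1 had none, so 3 of these 4 genes had a site. Without them, 8 of 14 cytosolic genes had an Abf1 site, and the difference from the mitochondrial genes was 57.1 points (23.6 to 78.6).

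Synthetases fall into structurally unrelated classes, class I with a Rossmann-fold catalytic domain and class II with an antiparallel sheet. An Abf1 site lay upstream of 7 of 10 cytosolic class II genes and 3 of 8 cytosolic class I genes, a difference of 32.5 points with an interval from -11.5 to 63.1 that includes 0. A Reb1 site lay upstream of 1 class II gene, FRS2, and 2 class I genes, ILS1 and VAS1. The class I genes with an Abf1 site were GLN4, MES1 and TYS1.

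The Abf1 sites of the cytosolic genes lay close to each other in distance from the start codon. The nearest was at TYS1 (YGR185C), 130 bp from the start codon, at 867643 to 867657 on chromosome VII. The site at FRS2 (YFL022C) was 136 bp away, at 95139 to 95153 on chromosome VI, and that at GLN4 (YOR168W) 139 bp away, at 649157 to 649171 on chromosome XV. FRS1 (YLR060W) had its site at 160 bp, on chromosome XII from 260812 to 260826. The genes for the subunits of the phenylalanyl enzyme thus each had an Abf1 site at a similar distance, on different chromosomes.

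Sites at HTS1 (YPR033C), DED81 (YHR019C) and DPS1 (YLL018C) followed within a few bp of each other, at 163, 165 and 166 bp. The HTS1 site spanned 639175 to 639189 on chromosome XVI, the DED81 site 143716 to 143730 on chromosome VIII and the DPS1 site 111734 to 111748 on chromosome XII. THS1 (YIL078W) had a site 173 bp away, at 212319 to 212333 on chromosome IX, and MES1 (YGR264C) 183 bp away, at 1022029 to 1022043 on chromosome VII. ALA1 (YOR335C) stood apart at 260 bp, with its site from 949362 to 949376 on chromosome XV.

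Between 100 and 200 bp lay 9 of the 10 Abf1 sites, against 44.2% of the 928 pairs of an Abf1 site and a gene in the whole list. The median distance was 164 bp (SD 36.7 over 10 sites), and the median over all pairs was 211.5 bp, with quartiles of 152 and 336.75 bp. The 100 to 200 bp range was chosen after the distances had been seen. All 10 sites lay outside protein-coding genes, as did 86.0% of the upstream Abf1 sites in the list.

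The 3 Reb1 sites were spread more widely. VAS1 (YGR094W) had its site 142 bp from the start codon, at 672040 to 672048 on chromosome VII, and ILS1 (YBL076C) 175 bp away, at 84432 to 84440 on chromosome II. FRS2 had its Reb1 site at 292 bp, from 95298 to 95306 on chromosome VI, which is 156 bp farther from the start codon than its Abf1 site. The median over all 811 pairs of a Reb1 site and a gene was 198 bp, so VAS1 and ILS1 lay nearer than the median and FRS2 farther.

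**Figure D3:**
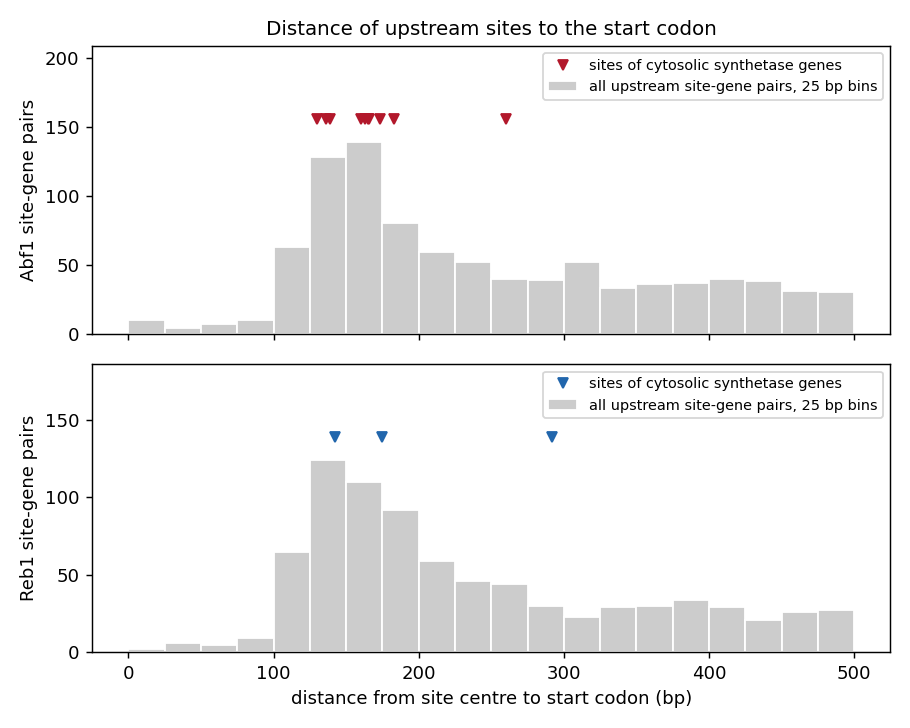
Grey bars count pairs of a site and a downstream gene in 25 bp bins of distance to the start codon for the whole Abf1 list (upper panel) and Reb1 list (lower panel), and triangles mark the sites of cytosolic synthetase genes. The Abf1 triangles gather from 130 to 183 bp, where the bars are also tallest, with ALA1 alone at 260 bp; the Reb1 triangles stand at 142, 175 and 292 bp.

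Just inside the 500 bp limit, the farthest counted sites were those of FRS2 for Reb1 (292 bp) and ALA1 for Abf1 (260 bp), so no counted site was near the limit. Just outside it lay Reb1 sites 542 bp from ALA1, 619 bp from CDC60 and 636 bp from MES1. Each of these was in the same intergenic stretch as the synthetase start codon but nearer to the gene on its other side. The ALA1 stretch held that Reb1 site 122 bp from the start codon of KRE5, a gene of cell wall glucan assembly. Those of CDC60 and MES1 lay 151 bp from the start of BEM4, a bud emergence gene, and 167 bp from that of YGR266W. In the stretches of ALA1 and MES1 an Abf1 site therefore stood on the synthetase side and a Reb1 site on the partner side. Among the mitochondrial genes the nearest was an Abf1 site 841 bp from MSF1, beyond the neighbouring gene MCM16.

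All 10 cytosolic genes with an Abf1 site had a divergent neighbour, meaning that the next protein-coding gene upstream is read in the opposite direction. Divergent neighbours were found at 14 of 18 cytosolic genes, 6 of 13 mitochondrial genes and 52.1% of all protein-coding genes with a neighbour. Among divergent genes alone, 10 of 14 cytosolic genes had an Abf1 site (71.4%, exact 95% interval 41.9 to 91.6) and 0 of 6 mitochondrial genes had one, against 15.1% of all divergent genes. That difference was 71.4 points (24.5 to 88.3). The restriction to divergent genes was added after the data were seen. Reb1 was found at 1 of 14 divergent cytosolic genes, FRS2, against 14.1% of all divergent genes.

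The tandem cytosolic genes were GRS1, ILS1, VAS1 and WRS1, whose upstream neighbour is read in the same direction. None of these 4 had an Abf1 site, against 11.8% of all tandem genes, and 2 of 4 had a Reb1 site, ILS1 and VAS1, against 10.9%. The counts are too small to set the factors apart by neighbour orientation. Upstream of ILS1 lies SSA3, an Hsp70 chaperone gene, and upstream of VAS1 lies DRN1.

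At 7 of the 10 genes with an Abf1 site, that site also lay within 500 bp upstream of the divergent partner. The same share over all divergent genes with an Abf1 site was not counted, so this count is not read as particular to synthetase genes. The TYS1 site was 124 bp from the start of TFG1, a TFIIF subunit gene, and was the only one of the 10 nearer to the partner than to the synthetase. The GLN4 site was 157 bp from RPS28A, a small-subunit ribosomal protein gene. Both of these intergenic stretches were short, 253 and 295 bp, and their sites lay near the middle.

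In 5 further stretches the site lay on the synthetase side. The DED81 site was 273 bp from YHR020W, the cytosolic prolyl-tRNA synthetase gene, so 1 Abf1 site stood between 2 synthetase genes. The FRS1 site was 272 bp from REX2, an RNA exonuclease gene. The THS1 site was 321 bp from AIR1, a gene of the nuclear TRAMP complex. The HTS1 site was 343 bp from ARP7, which encodes an actin-related subunit of the remodelers RSC and SWI/SNF. The ALA1 site was 404 bp from KRE5.

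At the remaining 3 genes the partner's start codon was farther off. The FRS2 site was 820 bp from GAT1, a GATA factor gene of nitrogen regulation, and the MES1 site 620 bp from YGR266W. The DPS1 site was 4691 bp from BPT1, a vacuolar transporter gene, with 2 annotated pseudogene stretches of SDC25 in between. For these genes the site was counted for the synthetase alone.

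The space upstream of the start codon differed between the classes. The gap to the next protein-coding gene had a median of 499 bp for cytosolic genes, from 237 bp at ILS1 to 4856 bp at DPS1. For mitochondrial genes it had a median of 287 bp, from 184 bp at MSF1 to 536 bp at NAM2, and over all protein-coding genes the median was 448 bp. A gap of at least 500 bp was present at 9 of 18 cytosolic genes (50.0%) and 2 of 13 mitochondrial genes (15.4%), against 43.8% of all protein-coding genes. The cytosolic share was thus close to that of all genes. The part of gap length in the difference in sites between the classes was not tested. Within the cytosolic class the median gap was 465 bp over the 12 genes with a site and 664 bp over the 6 without.

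**Figure D4:**
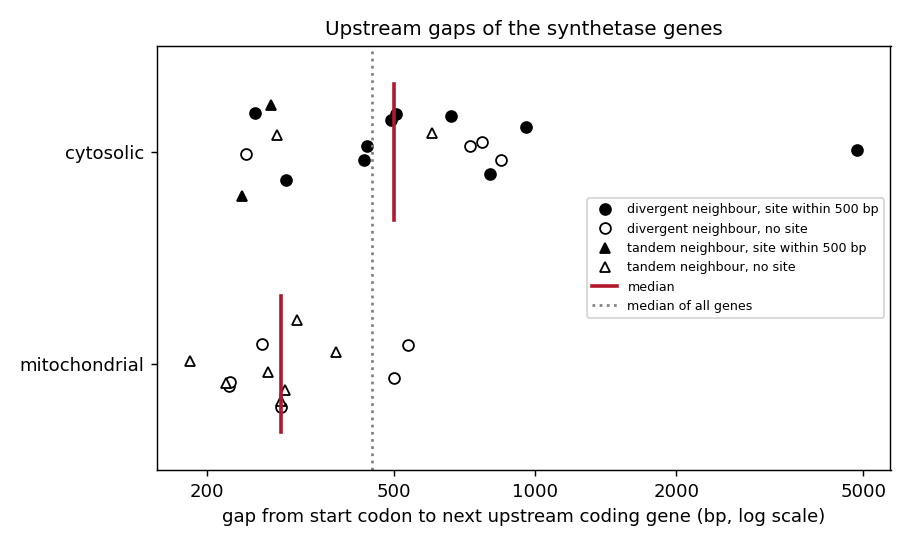
The horizontal axis is the gap from the start codon to the next protein-coding gene upstream in bp on a log scale, each point is 1 synthetase gene (circles divergent, triangles tandem, filled with a site within 500 bp), red lines are class medians and the dotted line is the median of all genes. The median is 287 bp for mitochondrial points (184 to 536 bp) and 499 bp for cytosolic points, which overlap them and spread more widely. Filled points cover the cytosolic range from 237 to 4856 bp.

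The score deposited with each site had no stated definition and was read only as a rank within its own list. The lists are titled in vitro ChIP PWM peaks, PWM (position weight matrix) being a model of a DNA motif. A rank is therefore not read as binding strength. Abf1 scores of the synthetase sites ran from 10.6 to 13.4 with a median of 12.99, beside a median of 11.98 over all Abf1 sites and 12.5 over all upstream Abf1 sites. At or above the list median were 9 of the 10. Against the median of upstream Abf1 sites (12.54), MES1 (12.53), FRS1 (12.44), GLN4 (12.29) and FRS2 (10.62) were below. HTS1 had the highest score, 13.4, at the 81.0th percentile of the list, followed by TYS1 (13.3, 79.3rd percentile) and THS1 (13.3, 78.8th percentile). None was among the top scores of the list, which reached 16.1.

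ALA1, DPS1 and DED81 had nearly equal scores, from 12.98 to 13.02, and stood between the 73rd and the 75th percentile. MES1 scored 12.5, FRS1 12.4 and GLN4 12.3. FRS2 was the exception, with a score of 10.6, the lowest in the list, shared by 13 of the 1365 sites. The gene with both factors thus had the lowest-ranked Abf1 site among the synthetase genes.

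Reb1 scores were 12.9 at ILS1 (73.2nd percentile) and 11.9 at both VAS1 and FRS2 (31.6th percentile), beside a median of 12.3 over all Reb1 sites. The score at VAS1 and FRS2 was shared by 55 of the 942 sites. The Reb1 sites in the stretches of ALA1, CDC60 and MES1, outside the 500 bp limit, scored 13.7, 12.9 and 12.2. The Reb1 site nearer to KRE5 thus ranked above the counted Reb1 sites of the synthetase genes.

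**Figure D5:**
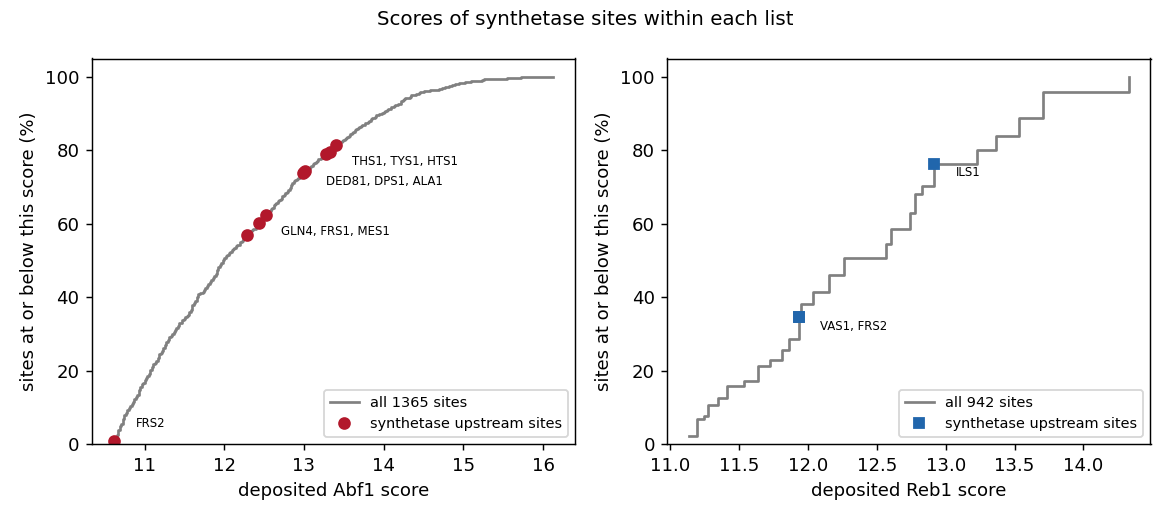
Grey steps give the percentage of sites at or below each deposited score for the 1365 Abf1 sites (left) and the 942 Reb1 sites (right), and coloured symbols mark the upstream sites of synthetase genes by name. Of the Abf1 symbols, 9 lie above the list median of 11.98 and FRS2 lies at the bottom; VAS1 and FRS2 share 1 Reb1 score.

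Identical rows recurred in the lists, up to 5 times per site, and what a repeat stands for is not stated. The GLN4 Abf1 site was listed in 4 rows. The DED81, THS1 and MES1 sites were listed in 3 rows each, and the TYS1, FRS1, HTS1 and DPS1 sites in 2. ALA1 and FRS2 had Abf1 sites listed in 1 row. The median was 2 rows over these 10 sites and 3 over the Abf1 list. The Reb1 sites of FRS2, ILS1 and VAS1 were listed in 5, 4 and 3 rows. At FRS2 the Reb1 site thus had the most rows and the Abf1 site the fewest.

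By strand, 8 of the 10 Abf1 sites were listed on the strand opposite to the synthetase gene, with HTS1 and DED81 the exceptions, and 50.0% of all Abf1 site and gene pairs were on the opposite strand. Where the partner is divergent, the opposite strand of the synthetase gene is the partner's own strand. The Reb1 sites of VAS1 and ILS1 were on the gene's strand and that of FRS2 on the other.

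Other genes of tRNA charging and use were counted in the same way. Their lists were written from textbook knowledge, with earlier results of these data known. Among 9 genes for synthetase partners and the remaining synthetases, 4 had an Abf1 site and 0 had a Reb1 site. The shares of all protein-coding genes were 13.5% and 12.5%. ARC1, whose protein binds the methionyl and glutamyl enzymes and delivers tRNA to them, had an Abf1 site 171 bp from its start codon, as MES1 did at 183 bp, and GUS1 had none. GTF1 (106 bp) and PET112 (380 bp), which encode subunits of the mitochondrial amidotransferase that makes glutaminyl-tRNA, also had Abf1 sites. Their upstream neighbours, NOP7 and NUP170, are divergent, and the distances of these sites to the neighbours' start codons are not given here. YHR020W had the site it shares with DED81. Genes of mitochondrial charging were thus not without Abf1 sites altogether.

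Of 58 tRNA modification genes, 8 had a Reb1 site and 9 an Abf1 site (13.8% and 15.5%), close to the shares of all protein-coding genes. The site nearest a start codon was, for Reb1, that of NCS6 (110 bp), a wobble uridine thiolation gene. For Abf1 the nearest were those of TRM2 (1 bp), a tRNA methyltransferase gene, IKI3 (82 bp), an Elongator subunit gene, and KAE1 (132 bp), a gene of threonylcarbamoyl adenosine synthesis. Of 22 genes of tRNA processing and transport, 6 had a Reb1 site (27.3%) and 2 an Abf1 site (9.09%). The shares of all protein-coding genes were 12.5% and 13.5%. Among the genes with a site were POP4 (139 bp), an RNase P subunit gene, and SEN15 (178 bp), a splicing endonuclease subunit gene. Of the 4 genes that sense uncharged tRNA or act directly downstream, GCN2, the kinase that binds uncharged tRNA, had an Abf1 site at 333 bp, and GCN1, GCN20 and GCN4 had none. The Abf1 shares of these lists stood below the 55.6% of the cytosolic synthetase genes, with no test of the difference.

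Cytosolic translation factor genes had an Abf1 site in 17 of 40 cases (42.5%) and a Reb1 site in 14 (35.0%). Either factor was found at 29 of 40 (72.5%), beside 66.7% of the cytosolic synthetase genes. Of all protein-coding genes, 13.5% had an Abf1 site, 12.5% a Reb1 site and 24.7% a site of either factor. The cytosolic synthetase genes differed from the cytosolic translation factor genes by 13.1 points for Abf1 (-13.6 to 37.4). For Reb1 they differed by -18.3 points (-37.2 to 7.63) and for either factor by -5.83 points (-31.4 to 17.1). All of these intervals include 0. Mitochondrial translation factor genes had 0 Abf1 sites and 2 Reb1 sites in 9 genes, at FMT1 (183 bp) and TUF1 (294 bp). Genes named as mitochondrial ribosomal proteins, a list added after the data were seen, had an Abf1 site in 15 of 67 cases (22.4%). A site of either factor lay at 27 of 67 (40.3%), against 24.7% of all protein-coding genes. These ribosomal protein genes exceeded the mitochondrial synthetase genes by 40.3 points for either factor (15.0 to 52.3). For Abf1 alone they exceeded them by 22.4 points, with an interval that includes 0 (-1.89 to 33.7).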

How the data were processed

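Per the labels' protocols, chromatin was assembled by salt dialysis, incubated with Strep-tagged Reb1 or Abf1 and a remodeler where given, crosslinked, digested with MNase and pulled down on Strep-Tactin, with part kept as input. The authors deposited a score per site, with no stated definition, in 1 list per factor. Per the submitters' processing notes Bowtie, sacCer3 and R64 were used, with no role given; how motifs were scanned, at which threshold and over which samples remains unstated there. Some pulldown labels name a track of the other factor, which the lists do not resolve.

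The 2808 Reb1 and 3699 Abf1 rows were reduced to distinct positions and strands. Starts were taken as counted from 0. Distances ran from the site centre to the start codon in an R64 table of coding extents, with strand read from the systematic name. Shares have exact Clopper-Pearson 95% intervals and differences Newcombe intervals. Motifs and promoter composition, planned at first, were not examined because no sequence was at hand. The members and lists were chosen with earlier results of these data known. Named genes were all members, their sites and divergent partners, and up to 4 members of each other list nearest a site; mitochondrial ribosomal proteins were taken by symbol, a list added after the data were seen. Of the listed names, 1 (TSF1) had no match. Placement was tested on simulated data. Python 3.11.15, pandas 2.3.3, scipy 1.17.1 and matplotlib 3.10.9 were used.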

Additional observations from a re-analysis of the deposited data

How the results depend on the processing

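The Abf1 and either-factor differences between cytosolic and mitochondrial genes kept their direction, with intervals excluding 0, under all 11 alternatives. They ran from 44.4 to 71.4 points for Abf1 and from 55.6 to 85.7 points for either factor. The lowest Abf1 value came from sites listed in at least 2 rows (8 of 18 genes, against 10.9% of all protein-coding genes). The highest Abf1 value came from divergent members only and from chromosomes V to IX, both settings added after the data were seen. With 1000 bp upstream, Reb1 was counted at 6 members, because ALA1, CDC60 and MES1 entered, and at 16.3% of all protein-coding genes. Its class difference was then 33.3 points (4.85 to 56.3) and its median distance 417 bp. The entering sites lay nearer to the start codon of the divergent partner. Any site in the upstream intergenic gap, a setting added after the data were seen, likewise gave 6 members and 33.3 points. No share of all protein-coding genes was counted for that setting. At or above the median score Reb1 was left at 1 member, ILS1, and at 7.26% of all protein-coding genes. On chromosomes V to IX alone, also added later, fewer members were counted. There 5 of 7 cytosolic genes had Abf1, 6 had either factor and 0 of 3 mitochondrial genes had a site. The share of all protein-coding genes on these chromosomes was not counted. Single settings removed FRS2 (score or rows), ALA1 (rows) or TYS1 (nearer gene only) from the Abf1 count and added MSF1 at 1000 bp. No paired analysis was possible because the lists carry no samples, and leaving out replicates was not possible for the same reason. The lists give no depth.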

Other observations

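Inside or just past the synthetase genes the lists held 11 further sites, and none of the mitochondrial genes had a Reb1 site among them. Abf1 sites lay inside 3 of 18 cytosolic genes, DED81, GRS1 and GUS1, and 1 of 13 mitochondrial genes, MST1, beside 8.66% of all protein-coding genes. DED81 held 2 overlapping Abf1 sites on opposite strands, with centres 457 and 458 bp past the start codon and scores of 11.1 and 10.6. GRS1 and MST1 held theirs near the end of the coding sequence, at 1891 of 2004 bp and 1267 of 1389 bp. GUS1 held its site at 1682 of 2127 bp. The scores of these 5 sites were all below the Abf1 median of 11.98, from 10.6 to 11.5. Of the 10 upstream Abf1 sites of synthetase genes, 9 were above it. The median over all upstream Abf1 sites of the list, 12.5, was above it as well.

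Reb1 sites lay inside ILS1 (1831 of 3219 bp, score 12.7) and KRS1 (745 of 1776 bp, score 12.6), which is 2 of 18 cytosolic genes beside 3.60% of all protein-coding genes. Within 500 bp past the stop codon, GUS1 had a Reb1 site at 194 bp that was listed in 5 rows with a score of 13.7, and TYS1 had one at 86 bp with a score of 12.8. MSR1 and MSM1, for the mitochondrial arginyl and methionyl enzymes, had Abf1 sites 96 and 307 bp past the stop codon, the latter inside the neighbouring gene PSD2. Of the cytosolic genes without a site within 500 bp upstream, GRS1, GUS1 and KRS1 thus had a site in the gene itself. CDC60, SES1 and WRS1 had none there either, and DED81 and ILS1 had sites both upstream and inside. The shares of genes with a site inside were not adjusted for coding length.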
